A study of Mus musculus with 2 samples.

Results

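Wt1 encodes a zinc finger transcription factor without which no kidney forms. The islands of Hdac1 and Hdac2 at and around this 1 gene, out of 21887 protein-coding genes, were taken from chromatin immunoprecipitation sequencing of nephron progenitor cells. Every island that reached the 1 kb on either side of a gene end, the gene body or the 100 kb on either side was counted, and that gave 17 of the 30182 Hdac1 islands and 10 of the 20307 Hdac2 islands. An island is a stretch that the authors' caller scored as enriched for reads, and each carries 1 deposited value, a p-value or q-value, in which a lower number is stronger. There was 1 library per antibody, both from cells of wild-type mouse kidneys at E16.5 that were cultured before crosslinking, and equal numbers of cells went into each immunoprecipitation. The file names give 0.5 µg for the Hdac1 antibody and 1 µg for that against Hdac2, and effects of the antibody and of its amount cannot be told apart. The sources used here do not give the strain, the number of animals or the read depth. With no replicate, the comparisons below set 2 libraries side by side, with no p, and deposited values rank islands within their own list only.

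Wt1 is made by nephron progenitors, in which it is needed for survival and for the change to epithelium, and at a higher level by podocytes, the filter cells of the glomerulus. It is lost or mutated in a share of Wilms tumours, the childhood kidney cancer that gave the gene its name. Hdac1 and Hdac2 are histone deacetylases, which remove acetyl groups from histone tails as part of larger complexes. They are found at active genes as well as at silent ones, so an island by itself does not say whether a gene is on or off. Wt1os is a long noncoding RNA gene that runs from the start of Wt1 in the opposite direction.

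The annotated Wt1 gene spanned 105126529 to 105173614 on chromosome 2 of mm10, and Wt1os spanned 105076538 to 105126510, so 18 bases lay between them. Besides these genes, the 247 kb examined held the start of Them7, a protein-coding gene that begins 50.7 kb beyond the far end of Wt1, and Gm13888, a pseudogene. The annotation has no exons, so islands inside a gene were not divided into exon and intron. RefSeq sequences around gene starts (GRCm38.p6, the assembly of mm10) were matched for 5 of 7 genes of the region, namely Wt1os, Them7, Eif3m, Gm38521 and Ccdc73, and not for Wt1 and Rcn1. The 3 stretches below are shown because they are gene starts of the region that differ in their islands: islands of both libraries covered the first and the last, and an Hdac1 island alone covered the second. Capitals mark CG dinucleotides.
Wt1os to Wt1, chr2:105126511-105126528, minus strand, the bases between the annotated genes: gcagccctagcctagctc
Eif3m to Gm38521, chr2:105017028-105017120, minus strand, the bases between these opposed genes: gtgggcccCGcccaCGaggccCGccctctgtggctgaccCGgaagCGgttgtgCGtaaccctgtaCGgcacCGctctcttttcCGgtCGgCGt
Them7, chr2:105224092-105224341, plus strand, the 250 bases before its start: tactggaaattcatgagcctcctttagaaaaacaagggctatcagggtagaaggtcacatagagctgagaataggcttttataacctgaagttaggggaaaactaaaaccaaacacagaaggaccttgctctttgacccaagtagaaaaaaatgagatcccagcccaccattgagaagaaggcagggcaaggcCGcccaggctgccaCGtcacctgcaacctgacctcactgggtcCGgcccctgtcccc

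The 18 bases between Wt1os and Wt1 had no CG dinucleotide, the 93 between Eif3m and Gm38521 had 11, and the 250 before Them7 had 3. These lengths differ, so the counts cannot be set against each other. The whole RefSeq start window of Wt1os, 300 bases of which 232 lay inside Wt1, had 16 CG dinucleotides and a G+C content of 66.7%. The windows of Eif3m, Gm38521, Them7 and Ccdc73, of the same length, had 24, 31, 10 and 16 CG dinucleotides. Over all 32851 start windows the median was 7 CG dinucleotides, with 21 in the windows that an Hdac1 island overlapped and 3 in those without. Islands overlapped 45.5% of start windows for Hdac1 and 23.5% for Hdac2. The Wt1os window held the letters GGGCGG, the GC box, 2 times over both strands, and 35.7% of windows held it at least 1 time. It held none of GCGTGGG, the core of the site that Wt1 shares with Egr proteins (5.04% of windows), CCAAT (37.4%) or TATAAA (13.6%). GGGCGG and GCGTGGG each contain a CG, so they are not independent of the CG count.

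The strongest Hdac1 island of the locus lay over the shared start of Wt1 and Wt1os, and Hdac2 covered the same start. The Hdac1 island ran from 105122001 to 105135000, a width of 13.0 kb, with a value of 1.06e-309. It reached 4.53 kb before the first base of Wt1 and 8.47 kb into the gene, and covered 18.0% of it. The Hdac2 island at that start ran from 105123001 to 105130800, a width of 7.8 kb, with a value of 4.40e-12. It reached 3.53 kb before and 4.27 kb after the first base. After a gap of 0.8 kb, a second Hdac2 island of 3.8 kb (2.24e-06), from 105131601 to 105135400, lay inside Wt1 and ended 400 bp past the edge of the Hdac1 island. Together both Hdac2 islands covered 86.2% of the Hdac1 island. Of all Hdac1 islands 0.732% overlapped at least 2 Hdac2 islands, but of the 58 that were as wide as that at Wt1 or wider 53.4% did. No island of either library lay within 1 kb of the far end of Wt1.

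**Figure D1:**
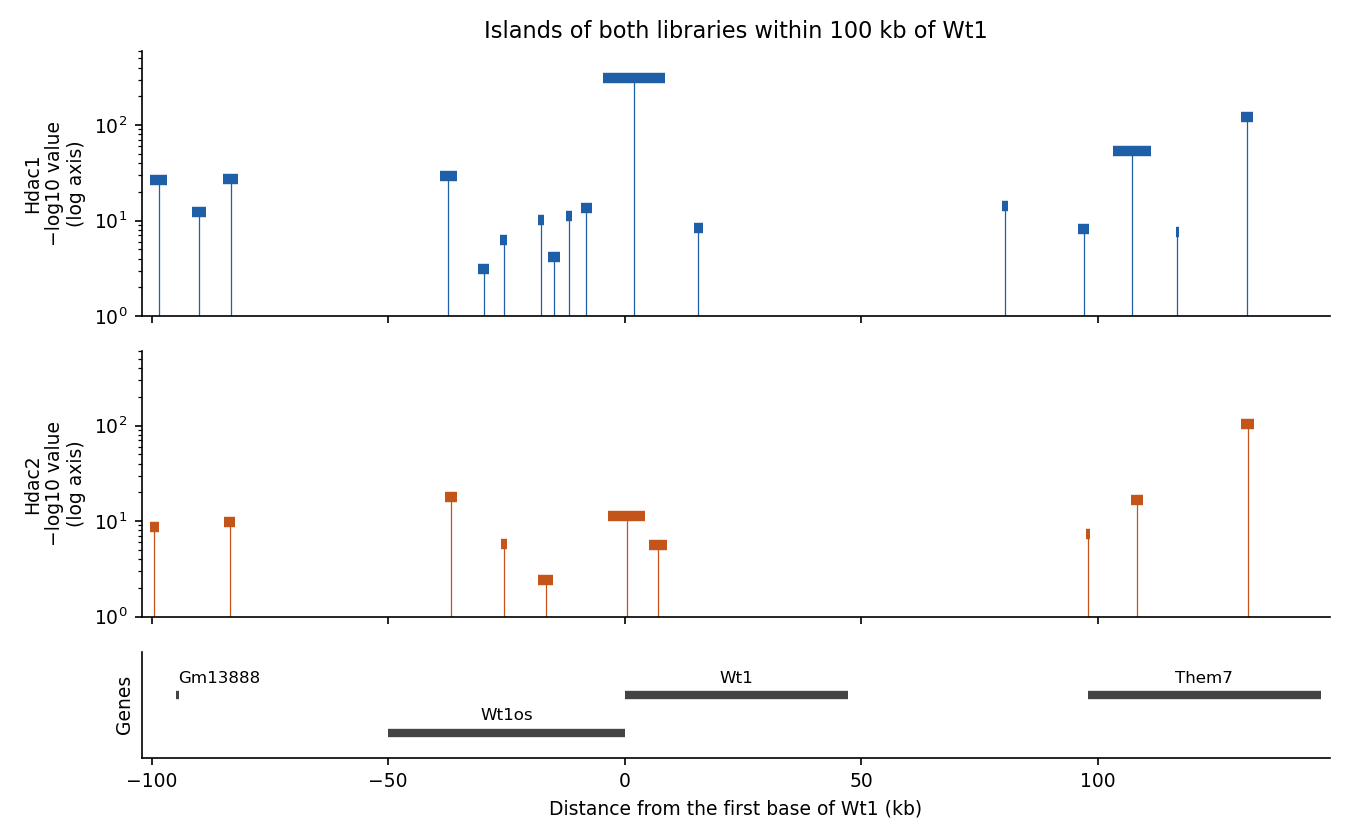
Islands within 100 kb of Wt1 by distance from its first base (kb), with Hdac1 above, Hdac2 in the middle and the annotated genes below. Each thick bar spans an island at the height of its −log10 value (log axis), and thin stems join it to the axis; the Hdac1 island over the start of Wt1 is the highest in its panel, and the highest Hdac2 island lies 83.2 kb beyond Wt1, in Them7.

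Islands of both libraries at a gene end were found at 30.7% of protein-coding genes, of Hdac1 at 60.7% and of Hdac2 at 31.7%, so their presence did not by itself set Wt1 apart. Wt1 lay toward the edge of the distribution in width and, for Hdac1, in the deposited value. Among the 13286 genes with an Hdac1 island at an end, the strongest island was 2.4 kb wide at the median (quartiles 1.6 and 3.4 kb), and 80 genes, Wt1 included, had 13.0 kb or more. The value at Wt1 was reached or passed at 100 of these genes, Wt1 included. It was the lowest in the Hdac1 list above 0. The 82 islands ahead of it are listed at 0, so how far they differ from it cannot be read. Among the 6943 genes with an Hdac2 island, the median width was also 2.4 kb and 165 genes had 7.8 kb or more, but 1709 genes, again counting Wt1, had a value as strong as that of Wt1 or stronger. The Hdac2 island at Wt1 was thus wider than at 97.6% of these genes and had a stronger value than at 75.4%. Genes can share an island: the Hdac1 list held 58 islands of 13.0 kb or more, fewer than the 80 genes. The gene counts given here are therefore not counts of separate units.

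The Hdac2 value at Wt1 was weaker than at most genes with a like Hdac1 value. Of the genes with islands of both libraries, 99 had an Hdac1 island listed at 0, and these cannot be ranked among themselves. Their Hdac2 values had a median of 1.13e-31, and 91 were stronger than at Wt1 and 8 weaker. The 56 genes that followed Wt1 in the order of Hdac1 values, down to 8.05e-269, had Hdac2 values between 1.14e-06 and 6.17e-142, with a median of 4.79e-18. Of these, 43 were stronger than at Wt1 and 13 weaker. In width the Hdac2 island at Wt1, of 7.8 kb, was exceeded at 44 of the 99 genes and 9 of the 56. The Hdac1 list held 82 islands at 0, fewer than the 99 genes, so some genes share an island and are not separate units. These sets were chosen after the values were seen.

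**Figure D2:**
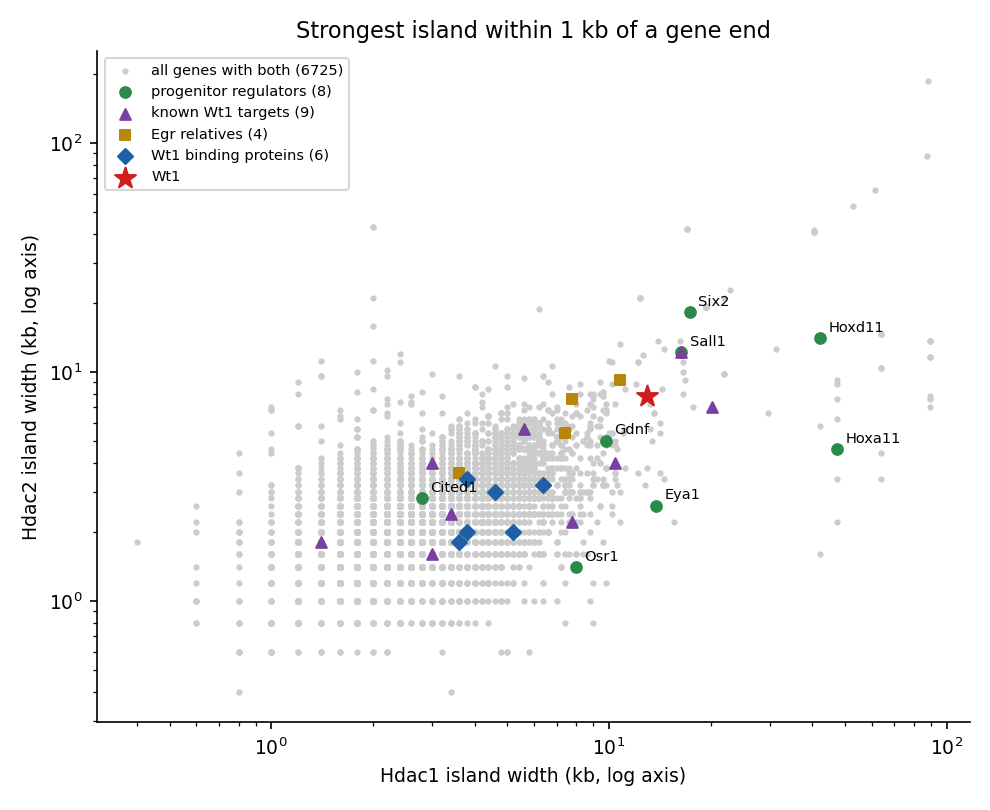
Width of the strongest Hdac1 island (x, kb, log axis) and Hdac2 island (y, kb, log axis) within 1 kb of a gene end, 1 point per gene with both, in 1 library per antibody; widths come in steps of 200 bp. Wt1 (star, 13.0 and 7.8 kb) lies toward the upper right, below and to the left of the progenitor genes Six2, Sall1 and Hoxd11.

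Wt1 lay in a stretch dense with islands. Within 100 kb of the gene the Hdac1 islands covered 53.7 kb (21.7% of the stretch) and the Hdac2 islands 28.3 kb (11.4%). The median protein-coding gene had 5 Hdac1 islands and 2 Hdac2 islands within that distance, covering 9.4 kb and 5.8 kb. At least 17 Hdac1 islands were found at 372 genes and at least 10 Hdac2 islands at 340 genes. Longer genes have a wider window, but among the 2188 genes of like length (35.9 to 57.1 kb) the counts of Wt1 were reached at 19 and 26 genes, Wt1 included.

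**Figure D3:**
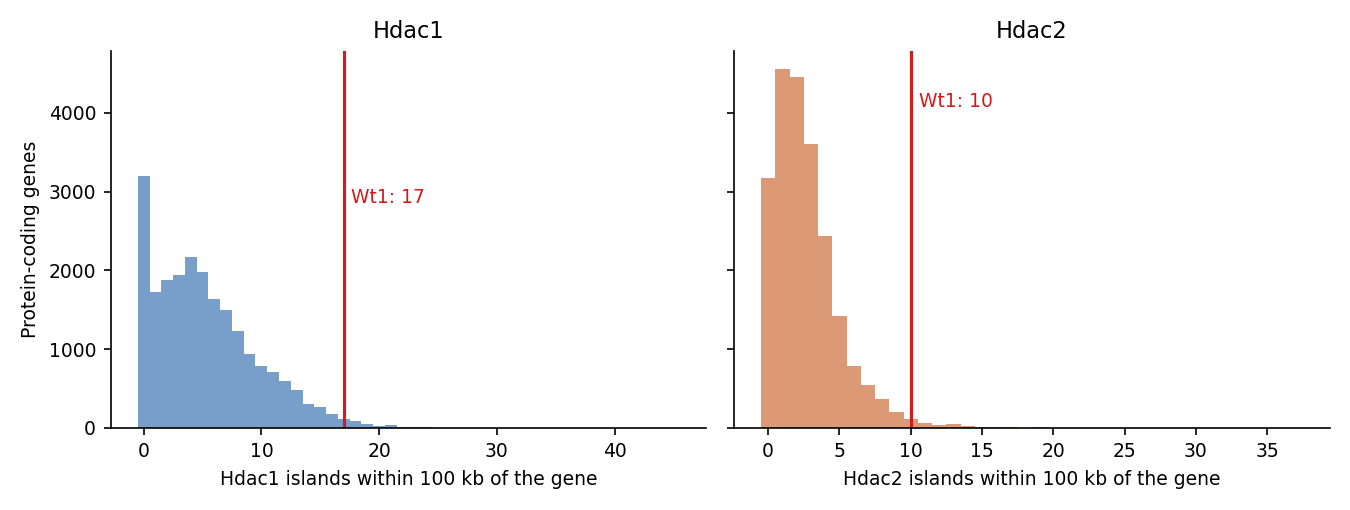
Number of protein-coding genes (y) by the number of islands within 100 kb (x), for Hdac1 on the left and Hdac2 on the right, 1 library each. The line marks Wt1, with 17 Hdac1 and 10 Hdac2 islands, in the upper tail of both.

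The 10 Hdac2 islands of the locus each overlapped an Hdac1 island, where 59.4% of all Hdac2 islands did. In the other direction 10 of 17 Hdac1 islands overlapped Hdac2, where 39.8% of all Hdac1 islands did. The bases in both lists came to 26.7 kb, which was 94.3% of the Hdac2 bases and 49.7% of the Hdac1 bases. Of the 340 genes with at least 10 Hdac2 islands within 100 kb, 39.1% had an Hdac1 overlap at each of them, so Wt1 was not alone in this. An overlap is a shared base or more, and neighbouring islands of 1 locus are not independent of each other.

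Toward Wt1os the islands stood in a row that led up to the start. Besides the island at the start, 7 Hdac1 islands lay inside Wt1os, from 105087401 to 105119600, with widths of 1.2 to 3.6 kb and gaps of 0.8 to 6.6 kb between neighbours. The strongest of the 7 was the farthest from Wt1, at a distance of 35.5 kb, with 3.6 kb and a value of 5.06e-30. Hdac2 had an island of 2.4 kb there with a value of 1.06e-18, the second strongest of the locus for this antibody. The others had Hdac1 values between 0.000727 and 3.01e-14. Hdac2 was present again at 24.9 kb (1.2 kb, 1.78e-06) and in an island of 3.2 kb at 15.1 kb, which ran across 2 Hdac1 islands and had the weakest value of the locus, 0.00390. The 2 Hdac1 islands closest to the start, at 11.1 and 6.93 kb, had no Hdac2, and neither had the one at 28.7 kb (0.000727). In all, Hdac1 covered 38.2% of Wt1os and Hdac2 20.6%.

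Farther out came a gap of 42.6 kb in Hdac1 and 44.4 kb in Hdac2, and then a further group at 81.7 to 96.7 kb from Wt1. It consisted of Hdac1 islands of 3.2 kb (6.82e-28), 3.0 kb (5.85e-13) and 3.6 kb (4.04e-27). Hdac2 islands of 2.4 kb (1.89e-10) and 1.8 kb (2.11e-09) lay within the first and the last of these. The group went on just outside the 100 kb limit, where an Hdac1 island of 4.6 kb (3.75e-34) at 101.7 kb overlapped an Hdac2 island of 4.0 kb (3.77e-15) at 102.1 kb. The limit thus cut through a run of islands on this side.

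Most of the body of Wt1 was free of islands. Apart from the islands at its start, an Hdac1 island of 1.8 kb (4.10e-09), from 105141201 to 105143000, and the second Hdac2 island were the islands inside the gene. The last 30.6 kb of Wt1 (65.0% of its length) had no Hdac1 island, and the last 38.2 kb (81.2%) had no Hdac2 island. With the sequence beyond the gene, the stretch without an island came to 63.2 kb in the Hdac1 list and to 88.6 kb in that of Hdac2. Such gaps were not rare: neighbouring Hdac1 islands were 28.4 kb apart at the median, and Hdac2 islands 69.8 kb. Of the gaps in the Hdac1 list 28.4% were longer than 63.2 kb, and of those in the Hdac2 list 42.9% were longer than 88.6 kb.

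On the Them7 side there were 5 Hdac1 and 3 Hdac2 islands, and the strongest Hdac2 island of the locus was among them. An Hdac1 island (2.2 kb, 6.95e-09) and a narrow Hdac2 island (0.8 kb, 4.73e-08) met over the start of Them7, whose sequence is given above. Inside Them7, an Hdac1 island of 8.0 kb (9.67e-54) held an Hdac2 island of 2.4 kb (1.64e-17). At 83.2 kb from Wt1, from 105256801 to 105259400, an Hdac1 island of 2.6 kb had a value of 5.16e-122. An Hdac2 island of 2.8 kb started at the same base, ended 200 bp farther and had a value of 3.04e-104. It was number 29 of the 20307 Hdac2 islands by value, while its Hdac1 partner was number 1343 of 30182. The Hdac1 islands at 32.6 and 69.4 kb, of 1.4 and 0.6 kb, had no Hdac2.

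The order of values within the locus therefore differed between the libraries. For Hdac1 the island at the start of Wt1 came first, ahead of the islands 83.2 kb and 56.2 kb beyond the gene. For Hdac2 the island 83.2 kb beyond came first and the one at the start of Wt1 was in place 4 of 10. The 10 Hdac1 islands with Hdac2 had a median width of 2.9 kb (1.2 to 13.0 kb) and a median value of 2.36e-27. The 7 without Hdac2 had a median of 1.8 kb (0.6 to 3.0 kb) and of 7.18e-12. The whole Hdac1 list had the same direction, with 2.4 kb and 7.08e-36 for islands with Hdac2 and 1.6 kb and 1.01e-11 for those without.

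**Figure D4:**
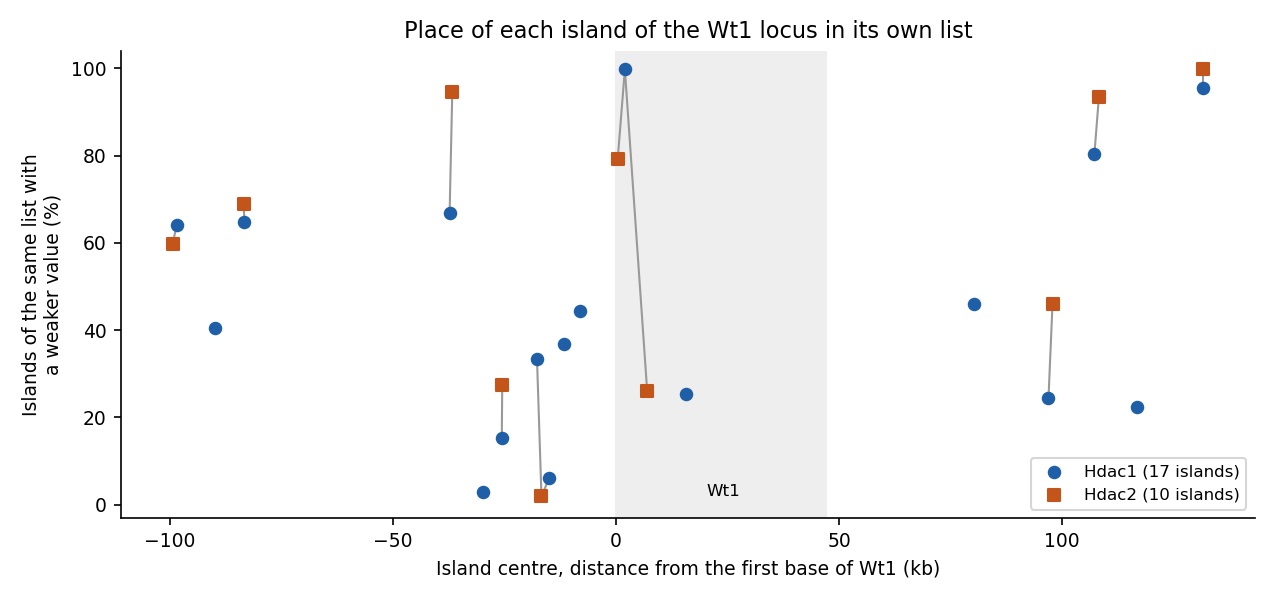
Each island of the locus by the distance of its centre from the first base of Wt1 (x, kb) and the share of islands of its own list with a weaker value (y, %), with grey lines joining islands that overlap and the gene shaded. Hdac1 reaches 99.7% over the start of Wt1 and Hdac2 79.2%, while the island in Them7 reaches 95.6% and 99.9%; the lists differ in length, so a height compares islands within a list.

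Several regulators that act with Wt1 in the progenitor had a broader Hdac1 island than Wt1. Hdac1 lay at an end of 10 of 10 such genes and Hdac2 at 8, where 60.7% and 31.7% of all protein-coding genes had them, and part of this was known from earlier results on the same libraries. The median Hdac1 width was 14.5 kb, and 6 of the 10 islands were wider than at Wt1, namely those of Six2, Sall1, Eya1, Pax2, Hoxa11 and Hoxd11. Hoxa11 and Hoxd11 lie on islands that run across their gene clusters. Each of the 10 genes had fewer Hdac1 islands around it than Wt1, as had 98.3% of all protein-coding genes. The extremes were 3 within 100 kb of Osr1, a factor of the early kidney mesoderm, and 14 at Meox1, a progenitor marker. Hdac1 covered fewer kb than the 53.7 kb at Wt1 around 8 of them, and around 99.2% of all protein-coding genes. It covered more around Hoxa11 (93.2 kb) and Hoxd11 (87.0 kb). Hdac2 counts went from 1 at Cited1, a marker of uncommitted progenitors, to 13 at Hoxa11. Like Wt1, 7 of the 10 genes had an Hdac1 overlap at each Hdac2 island within 100 kb, among them Hoxa11 (13 of 13), Hoxd11 (11 of 11) and Meox1 (6 of 6). The other 3 were Gdnf, a ligand that attracts the ureteric bud (4 of 5), Eya1, a transcriptional coactivator of the kidney (3 of 6), and Osr1 (3 of 8). Of all protein-coding genes with an Hdac2 island within 100 kb, 58.8% had an Hdac1 overlap at each.

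Genes known as targets of Wt1 in kidney or gonad differed among themselves, and 4 of 15 had no island at their ends. Hdac1 was present at an end of 11 of the 15, beside 60.7% of all protein-coding genes, and 9 of these had Hdac2 as well, beside 30.7% with both. Spry1, an inhibitor of receptor tyrosine kinase signalling, had 20.2 kb of Hdac1, listed at 0, and 7.0 kb of Hdac2 (1.02e-24). Gas1, a membrane protein that takes part in growth factor signalling, had 10.4 kb, listed at 0, and 4.0 kb (1.49e-32). Around Gas1 there were 16 Hdac1 islands and 14 Hdac2 islands within 100 kb, 13 of the latter overlapping Hdac1. Bmper, a modulator of Bmp signals, had 7.8 kb (6.23e-129) and 2.2 kb (9.36e-12). The genes with neither were Nphs1, which encodes a protein of the podocyte slit diaphragm, Amhr2 and Nr5a1 of the gonad, and Fgf16. Sulf1 and Pax2 had Hdac1 without Hdac2 within 1 kb of an end, although an Hdac2 island overlapped 2 of the 3 RefSeq start windows of Pax2. Pax2 and Sall1 are in this group and in the one before.

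Relatives and partners of Wt1, 10 genes in all, had islands of both libraries in each case, where 30.7% of protein-coding genes did. Like the other gene lists, these were chosen with earlier results of these data known. The 4 Egr genes encode transcription factors whose zinc fingers resemble those of Wt1, and their Hdac1 islands were 3.6 to 10.8 kb wide and their Hdac2 islands 3.6 to 9.2 kb. Their Hdac2 values, from 3.96e-16 at Egr1 to 1.79e-35 at Egr2, were stronger than that of Wt1, and their Hdac1 values were weaker. The 6 genes for proteins that bind Wt1 or were found through it, Basp1, Pawr, Wtap, Trp53, Crebbp and Trim28, had narrower islands, of 3.6 to 6.4 kb and 1.8 to 3.4 kb. Basp1, a corepressor of Wt1, had 4.6 kb (2.68e-150) and 3.0 kb (7.29e-12).

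The genes on either side of Wt1 on the chromosome had narrower islands or none. Of 6 flanking genes, 5 had Hdac1 at an end, with widths of 1.6 to 5.0 kb, and 2 had Hdac2. Of all protein-coding genes, 60.7% and 31.7% had them. Them7, described above, was not in this list and had both. Rcn1, a calcium-binding protein gene beyond Them7, had both, of 2.0 kb (8.39e-109) and 1.4 kb (2.15e-14). Qser1 had 5.0 kb (4.60e-67) and 3.2 kb (1.89e-06). Eif3m, a translation initiation factor gene whose start is printed above, had 1.6 kb of Hdac1 (1.25e-49) and no Hdac2. Pax6, a transcription factor gene of eye and brain, had an Hdac1 island of 3.2 kb (1.19e-06) and 2 Hdac1 islands in all within 100 kb, with no Hdac2. Prrg4 had Hdac1 alone (6.56e-19), and Ccdc73, between Prrg4 and Eif3m, had no island at its ends.

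Islands do not measure expression, so the labelled cell type could not be checked with them. As a record of the marker genes, Hdac1 lay at an end of 4 of 4 progenitor markers, 1 of 2 podocyte, 2 of 3 ureteric bud, 2 of 2 stromal and 0 of 2 endothelial markers. For Hdac2 these counts were 3, 1, 1, 2 and 0. Over all protein-coding genes the shares were 60.7% and 31.7%. The counts depend on the annotated gene ends. Gata3, a ureteric bud marker counted with neither, had islands of both libraries inside the gene and over its RefSeq start window. Wnt11, of the same group, was counted with Hdac1 alone but had Hdac2 over 1 of its 2 start windows. Nphs1, a podocyte marker counted with neither, had no island over its start window but had 2 Hdac1 islands inside the gene. Pecam1, an endothelial marker also counted with neither, had 1 Hdac1 island inside the gene.

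The genes most like Wt1 at their ends had fewer islands around them than Wt1, as nearly all genes did. Likeness was the mean difference, in percentile points, of the widths and values of the strongest Hdac1 and Hdac2 islands, over 6725 genes with both and over 2 libraries. The closest were Brd2, a reader of acetylated histones, and its neighbour H2-DMa, of antigen presentation, which share their islands (9.8 kb, listed at 0, and 6.8 kb, 1.54e-12) and differed from Wt1 by 0.972 points. Ier2, an immediate early gene, followed at 1.56 points, Bcl9l, a coactivator of beta-catenin, at 1.58, and Enc1 at 1.69. Around these 5 genes there were 7 to 10 Hdac1 islands and 2 to 7 Hdac2 islands within 100 kb, below the 17 and 10 of Wt1. Of all protein-coding genes, 98.3% and 98.4% lay below Wt1 in these counts, and the medians were 5 and 2. The 5 genes are shorter than Wt1, so their windows were narrower. The counts within 100 kb were not used in the measure of likeness.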

How the data were processed

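Each deposited file is a list of islands made by the authors, and its 1 measured column is a p-value or q-value per island; nothing states which. The reads were handled with SICER, bedtools 2.17, SAMtools 1.3.1 and BWA 0.7.5a on build mm10, per the submitters' processing notes. The sources used here do not give the settings of SICER, its background library, the read depth or any pooling. Libraries were made from 500 pg of DNA, per the labels' protocols, with repeated amplification, so reads are not independent molecules. Control immunoprecipitations with IgG and H3K4me3 antibodies are mentioned in the labels and were not analysed here. Island widths were multiples of 200 bp, islands of 1 list lay at least 800 bp apart, and values reached 0.0979 for Hdac1 and 0.0980 for Hdac2. Median widths were 2.0 and 2.8 kb.

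Starts in the files count from 0 and are printed here from 1. The gene annotation was that of RefSeq for GRCm38.p6, which gives spans without strand or exons, so both gene ends were treated alike. Overlap meant at least 1 shared bp. Of several islands at the ends of a gene, that with the lowest value was used. The intervals of shares used to label alternatives were 95% Wilson intervals. Overlap and gene-end steps were tested on simulated data against bedtools 2.31.1. Computation was in Python 3.11.15 (pandas 2.3.3, numpy 2.4.6, scipy 1.17.1), with plots from matplotlib 3.10.9.

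The gene, the lists and the tests were chosen with earlier results of these data known. Named genes are Wt1, the genes within 100 kb, the members of the lists and the 5 genes most like Wt1. Individual results of some listed genes are left out, and these genes are not counted in their lists. Alternatives were the upper 50% of each list by value, other definitions of overlap, other windows at gene ends and around the gene, and islands merged below a gap of 1 kb.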

Additional observations from a re-analysis of the deposited data

How the results depend on the processing

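At the ends of Wt1, 1 Hdac1 and 1 Hdac2 island remained in the upper 50% of each list, with windows of 500 bp, 2 kb and 5 kb, and after merging. None of these settings could have removed them. Both islands reached at least 3.53 kb to either side of the first base of Wt1. By value they were stronger than 99.7% and 79.2% of their lists. The other alternatives do not bear on this result. Of 53 recomputed values 28 were labelled as near the reported ones and 25 as moved, under unlike rules. Counts and kb were judged by a fold limit, so 21 Hdac1 islands in place of 17 stayed. Shares were judged by their narrow Wilson interval, so 59.1% in place of 60.7% moved. With the upper 50% of each list by value, 6 Hdac1 islands (33.7 kb) and 6 Hdac2 islands were left within 100 kb, and all 6 of each list overlapped the other. With 50 kb on either side there were 11 Hdac1 islands (32.0 kb), 6 of them with Hdac2, and 5 Hdac2 islands (18.4 kb), all 5 with Hdac1. When an overlap had to cover at least 50% of both islands, it was met by 6 islands of each list. The share of protein-coding genes with an Hdac1 island at an end was 52.6% for the upper 50% of the list, and 59.1%, 62.9% and 66.5% with windows of 500 bp, 2 kb and 5 kb. For Hdac2 these shares were 15.8%, 30.6%, 33.6% and 38.4%, and for both 15.0%, 29.6%, 32.5% and 36.5%. No paired analysis was possible because each antibody has 1 library and no result comes from a test. Read depth is unknown, so an absent Hdac2 island may be one that was not detectable.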
